A study of Mus musculus with 20 samples.

Results

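The genes described here are 49 genes of the cell cycle and of DNA replication, measured in sarcomas of the mouse. They were listed by symbol and found through their Ensembl identifiers, all 49 of them among the 51826 genes of the count table. Of the 49, 17 act in S phase, 29 act in the passage from G2 through mitosis, and 3 (Ccna2, Cdk2 and Mybl2) act in both. RNA was sequenced from 14 lung metastases and from the 6 primary tumours they were matched with. Each primary tumour makes a set with its own metastases. Sets 1 to 6 held 4, 4, 2, 1, 1 and 2 metastases. Metastases are named by set and number, so that 2-3 belongs to set 2, and the single metastasis of set 5, which has no number, is 5-x. The genotype label gives a mixed background for every sample, metastases and primary tumours alike, and names no allele. No label used here gives an age, a sex, a treatment, the site of a primary tumour or a time of collection, and none tells which animals the samples came from, so a p-value here rests on the spread among these libraries alone, which may be technical.

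Cells copy their genome once per division, in S phase, and separate the copies in mitosis. The licensing factors and the MCM helicase are placed on replication origins before S phase, and cyclin-dependent kinases then fire those origins and later drive entry into mitosis. Many S phase genes are controlled by E2F transcription factors, whereas many mitotic genes carry a cell cycle homology region (CHR) in the promoter, which the DREAM complex binds in resting cells and the B-Myb, MuvB and FoxM1 complexes bind in dividing cells. In a bulk sample of a tumour such transcripts come from tumour cells and from any other dividing cell in the piece, and fewer cycling cells cannot be told apart from less of these transcripts in each cycling cell.

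The promoter windows of RefSeq (GRCm38.p6, 250 bases before to 50 after the start of a gene, 300 in all) held an entry for 40 of the 49 genes. They were searched on both strands for the E2F site as TTTCCCGC, TTTCGCGC, TTTGCCGC or TTTGGCGC, for the CHR as TTTGAA or TTCGAA, and for the CCAAT box as CCAAT. An E2F site was found in 5 of 14 S phase genes (35.7%), in 1 of 24 mitotic genes (4.17%) and in 2.6% of all 27025 genes with a window. A CHR was found in 3 of 14 S phase genes (21.4%), in 19 of 24 mitotic genes (79.2%) and in 21.7% of all genes. The CCAAT box was found in 71.4% of the S phase genes, 79.2% of the mitotic genes and 41.1% of all genes. A match describes letters in the window and is not evidence of a bound site. The 160 bases before the start are printed for 2 S phase and 4 mitotic genes, to show how the promoters of the groups compared below are built. Capitals mark every match.
Mcm6: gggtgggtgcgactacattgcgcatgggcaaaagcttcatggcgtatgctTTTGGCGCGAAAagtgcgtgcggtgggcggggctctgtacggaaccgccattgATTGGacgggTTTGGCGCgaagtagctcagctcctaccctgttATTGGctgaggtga
Cdc6: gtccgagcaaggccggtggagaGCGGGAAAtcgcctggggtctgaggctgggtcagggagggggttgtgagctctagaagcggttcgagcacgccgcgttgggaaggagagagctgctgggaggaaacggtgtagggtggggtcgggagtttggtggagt
Prc1: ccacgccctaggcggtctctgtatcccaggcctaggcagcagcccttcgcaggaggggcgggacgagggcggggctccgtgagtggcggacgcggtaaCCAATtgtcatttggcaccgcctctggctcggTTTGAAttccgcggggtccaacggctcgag
Mki67: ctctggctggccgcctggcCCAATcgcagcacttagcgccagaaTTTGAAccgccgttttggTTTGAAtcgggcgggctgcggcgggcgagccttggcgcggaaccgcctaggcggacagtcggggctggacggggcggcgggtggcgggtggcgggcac
Top2a: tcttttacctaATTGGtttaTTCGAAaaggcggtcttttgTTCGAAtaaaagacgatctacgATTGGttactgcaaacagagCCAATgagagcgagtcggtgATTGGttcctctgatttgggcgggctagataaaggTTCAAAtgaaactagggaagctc
Cdk1: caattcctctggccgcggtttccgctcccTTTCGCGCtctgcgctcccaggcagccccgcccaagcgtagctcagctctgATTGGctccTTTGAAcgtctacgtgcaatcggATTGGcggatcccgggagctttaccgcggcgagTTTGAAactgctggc

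These stretches lie at chr1:128359706-128359865 for Mcm6, on the minus strand, and at chr11:98907991-98908150 for Cdc6, on the plus strand. They lie at chr7:80294316-80294475 for Prc1, on the plus strand, and at chr7:135716380-135716539 for Mki67, on the minus strand. They lie at chr11:99024190-99024349 for Top2a and at chr10:69352913-69353072 for Cdk1, both on the minus strand. Positions are counted back from the start, so that -1 is the last base before it, and a match on the other strand is read in the direction printed. Mcm6, a subunit of the replicative helicase, has E2F sites at -110 and -106, which overlap, and at -47, with CCAAT boxes at -57 and -14. The Cdc6 window printed here has an E2F site at -138 and no CHR. It lies inside the span of the gene given below, downstream of the annotated start of the gene. Not every window of a gene with several is printed. Prc1 has the pair of elements most common among the mitotic genes, a CCAAT box at -62 and a CHR at -30. Mki67 has CHR matches at -116 and -98, and Top2a has them at -140, -120 and -23 among a row of CCAAT boxes. Cdk1 is the mitotic gene with an E2F site, at -131, and it also has CHR matches at -71 and -15.

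Total counts ran from 20603620 to 36824370 per library, and all 49 genes passed the filter on low counts, the smallest count of any of them in any library being 18. In metastasis 4-1, metastasis 3-2 and primary tumour 4, the level of a gene relative to its median over the 20 libraries fell with the GC content of its transcript (Pearson r -0.837, -0.713 and -0.628 across 11376 genes, which share the library), against -0.155 to 0.399 in the other 17 libraries. The comparison of metastases with primary tumours, the indices, the counts of extreme libraries and the tests among metastases are given below with and without the libraries of these that entered them. Markers of mesenchymal cells, which check the label sarcoma, summed to 6083 to 32020 CPM in metastases and 14270 to 29720 CPM in primary tumours, with Thy1 at 0 in a primary tumour. Markers of alveolar type 2 cells of the lung summed to 152 to 11010 CPM in metastases and 44.0 to 174 CPM in primary tumours. In every primary tumour and in metastasis 2-4, the lowest metastasis, most of this sum came from Abca3 and Etv5. The sum there need not stand for lung, and primary tumour 3 had 0 counts of Sftpc. Markers of skeletal muscle summed to 12.2 to 3605 CPM in metastases and 1.92 to 9997 CPM in primary tumours.

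Some of the cell cycle genes fell in lung metastases relative to their primary tumours, and none rose. Of the 49 genes, 12 fell and 0 rose (edgeR, adjusted p under 0.05), against 6.44% of all 18452 genes tested that fell. Their fitted log2 fold change was negative for 48 of the 49, with Rrm2 the exception, against 9229 of the 18452 genes tested. The median log2 fold change was -0.64 over the 49 genes and -0.00032 over all genes. At an unadjusted p under 0.05 the count was 28, all lower in metastases. The count rested on single sets: it was 3 without set 1, 2 without set 2, 6 without set 4, 2 without set 6 and 1 without sets 4 and 6 together, against 14 without set 3 and 13 without set 5. The share of all genes that fell was 2.36% without set 1, 2.22% without set 2, 5.54% without set 4, 3.22% without set 6 and 5.66% without sets 4 and 6, against 7.65% without set 3 and 6.43% without set 5. With the metastases of each set summed, 0 of the 49 genes fell, against 0.357% of all genes. The smallest edgeR adjusted p of the 12 genes was then 0.0734. The 12 genes had negative log2 fold changes in each of these fits, and with upper quartile scaling 10 of the 12 passed the test.

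**Figure D1:**
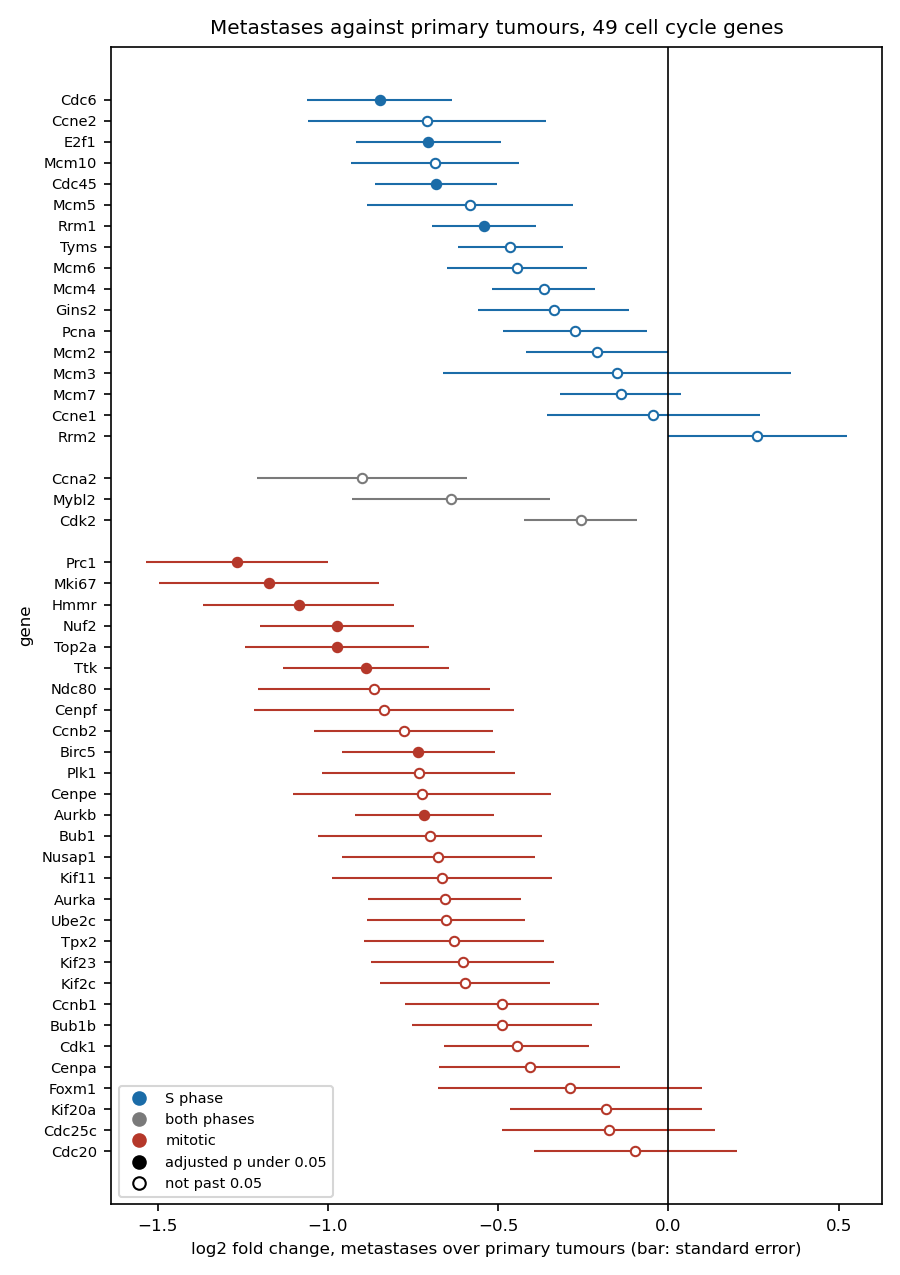
Fitted log2 fold change of each of the 49 genes, metastases over primary tumours (horizontal axis), with its standard error as a bar. Genes are grouped as S phase (blue), both phases (grey) and mitotic (red), and filled points are the 12 genes with an adjusted p under 0.05. Every point except that of Rrm2 lies left of 0.

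The levels of the groups overlapped for all 49 genes. This count and the counts by set below were not taken over all genes, so they describe the 49 genes only. Of the 49 genes, 18 were lower in the metastases of 6 of 6 sets, 23 in 5 of 6 sets and 8 in 4 or fewer. Of the 12 genes that fell, 10 were lower in 6 of 6 sets. By set, 49 of the 49 genes were lower in the metastases of set 1, 31 in set 2, 39 in set 3, 46 in set 4, 43 in set 5 and 40 in set 6. The median log2 difference over the 49 genes was -0.99 in set 1, -0.07 in set 2, -0.52 in set 3, -0.91 in set 4, -0.33 in set 5 and -0.66 in set 6. Averaged over its metastases, set 2 thus stood nearest to no difference, and set 1 furthest from it. The metastases of set 2 differed in direction. Over the 29 mitotic genes, mean log2 CPM was 6.02 in primary tumour 2. It was 5.57 and 5.5 in metastases 2-1 and 2-2, and 6.4 and 6.12 in metastases 2-3 and 2-4. Over the 17 S phase genes it was 5.77 in primary tumour 2, and 5.43, 5.37, 6.05 and 5.93 in metastases 2-1 to 2-4.

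**Figure D2:**
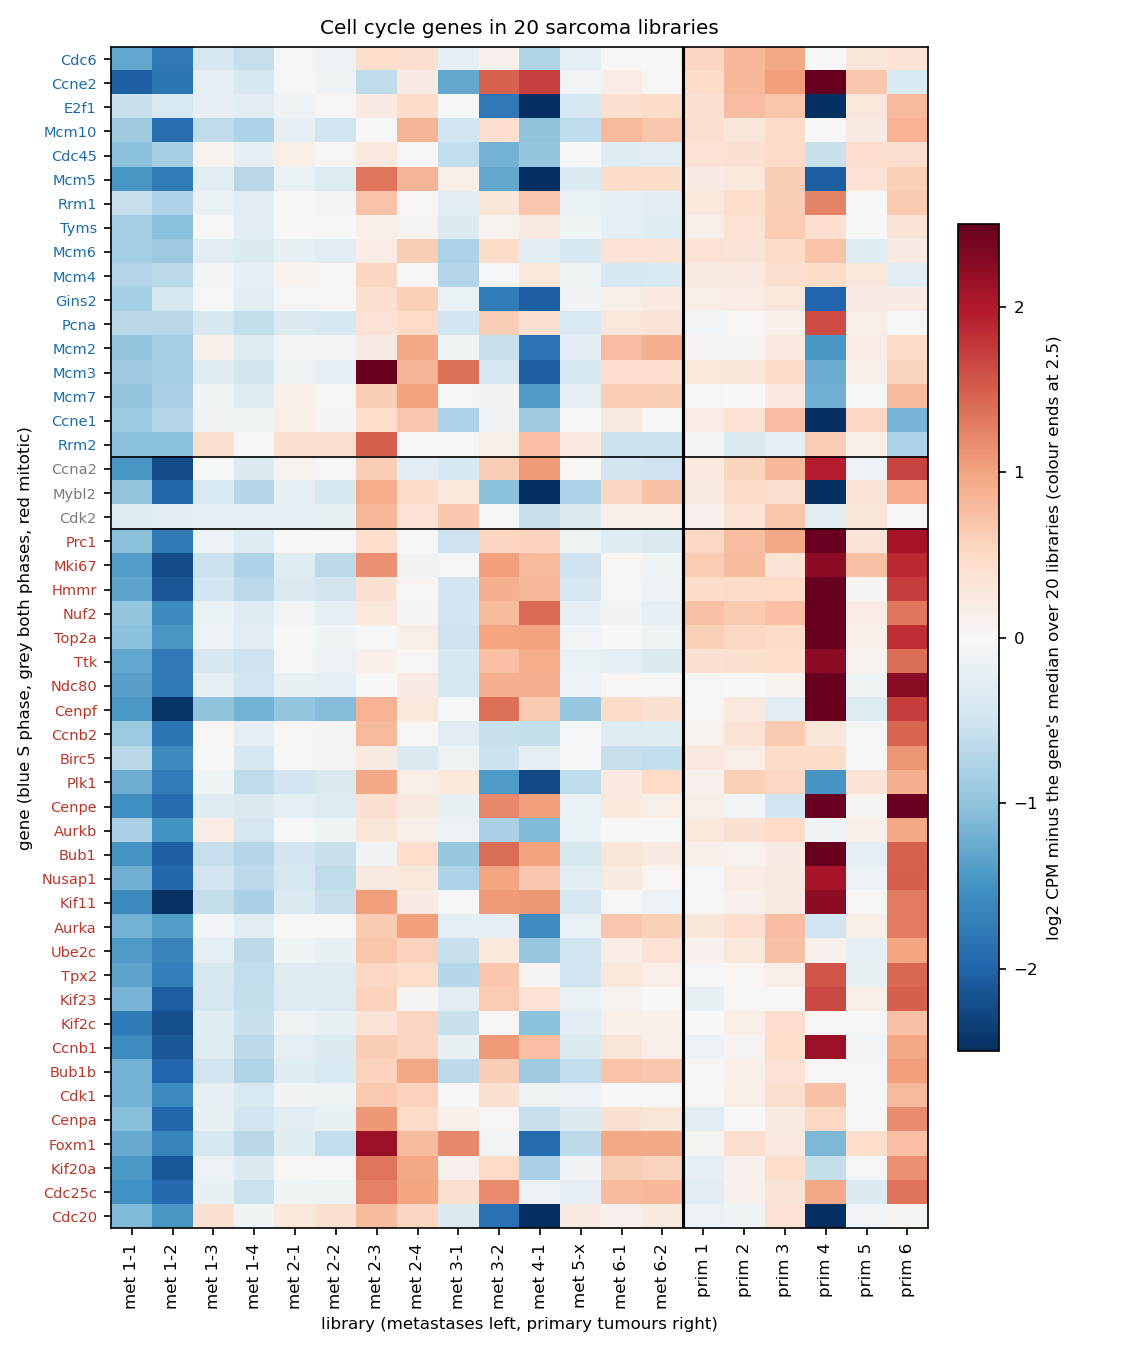
Level of each of the 49 genes (rows) in each of the 20 libraries (columns, metastases left and primary tumours right) as log2 CPM minus the median of that gene over the 20 libraries, with red above and blue below the median. Metastases 1-1 and 1-2 are blue in nearly all rows, primary tumours 4 and 6 are red in most mitotic rows, and primary tumour 4 and metastasis 4-1 are red in some rows and dark blue in others.

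Among the S phase genes, 4 of 17 fell: the licensing factor Cdc6, the helicase component Cdc45, the large subunit of ribonucleotide reductase Rrm1 and the transcription factor E2f1. The median log2 fold change of the 17 genes was -0.44, and 8 had an unadjusted p under 0.05. These are the 4 S phase genes of smallest p.

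Cdc6 (ENSMUSG00000017499.15, chr11:98907801-98923940), which loads the MCM helicase on origins, had a lowest, median and highest level of 3.55, 10.9 and 16.7 CPM in metastases and 12.5, 16.8 and 24.2 CPM in primary tumours. Metastasis 1-2 was lowest, 10 of 14 metastases lay below the lowest primary tumour, and the groups overlapped. The log2 fold change was -0.85 ± 0.21 (SE), with an edgeR adjusted p of 0.0157, and the gene was lower in 6 of 6 sets. Cdc45 (ENSMUSG00000000028.14, chr16:18780447-18811987), part of the active helicase with the MCM and GINS complexes, had 13.5, 25.8 and 36.2 CPM in metastases and 20.8, 40.1 and 42.5 CPM in primary tumours. The lowest metastasis was 3-2 and the lowest primary tumour was 4, both among the libraries with the GC trend, and the groups overlapped. Cdc45 fell by 0.68 ± 0.18 on the log2 scale (edgeR adjusted p = 0.0194, lower in 6 of 6 sets).

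Rrm1 (ENSMUSG00000030978.10, chr7:102441695-102469771), which makes the deoxynucleotides of replication together with Rrm2, had 95.2, 145 and 268 CPM in metastases and 162, 235 and 385 CPM in primary tumours. Of the 14 metastases, 9 lay below every primary tumour, and metastasis 2-3, the highest, lay above the median of the primary tumours. The log2 fold change was -0.54 ± 0.15 (edgeR adjusted p = 0.0272, lower in 6 of 6 sets). E2f1 (ENSMUSG00000027490.17, chr2:154559407-154569892), an activator of S phase genes, had 1.87, 15.8 and 24.5 CPM in metastases and 2.25, 25.8 and 31.0 CPM in primary tumours. The lowest value of each group was a library with the GC trend, metastasis 4-1 and primary tumour 4, and E2f1 has the highest transcript GC content of the 49 genes, 58.3%. Its log2 fold change was -0.71 ± 0.21 (edgeR adjusted p = 0.0381, lower in 6 of 6 sets).

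Rrm2 (ENSMUSG00000020649.11, chr12:24708241-24714146), the small subunit that Rrm1 works with, had the largest positive log2 fold change of the 49 genes, 0.26 ± 0.26 (edgeR adjusted p = 0.556). It had 28.7, 63.0 and 167 CPM in metastases and 33.8, 53.1 and 91.4 CPM in primary tumours. Metastasis 2-3 was highest and metastasis 1-2 lowest, so that the metastases spanned the whole range of the primary tumours, and Rrm2 was lower in the metastases of 1 of 6 sets. Pcna (ENSMUSG00000027342.14, chr2:132249162-132253314), the sliding clamp of the replicative polymerases, had 23.6, 29.7 and 58.7 CPM in metastases and 36.8, 40.6 and 119 CPM in primary tumours. Its highest value was that of primary tumour 4, and 8 of 14 metastases lay below the lowest primary tumour. Its log2 fold change of -0.27 ± 0.21 did not pass the test (edgeR adjusted p = 0.427, lower in 4 of 6 sets).

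The helicase subunits and the remaining S phase genes had smaller or more variable differences, and 0 of them passed the test. Among the MCM genes the log2 fold change was -0.69 ± 0.25 for Mcm10, an origin firing factor, -0.58 ± 0.30 for Mcm5, -0.44 ± 0.21 for Mcm6, -0.37 ± 0.15 for Mcm4, -0.21 ± 0.21 for Mcm2, -0.15 ± 0.51 for Mcm3 and -0.14 ± 0.18 for Mcm7, with edgeR adjusted p from 0.0754 for Mcm10 to 0.88 for Mcm3. The standard error of Mcm3 was the largest of the 49 genes, and it was 0.25 without metastasis 2-3, in which Mcm3 was highest. Tyms, the thymidylate synthase, had -0.46 ± 0.16 (edgeR adjusted p = 0.0567). Gins2, of the GINS complex, had -0.34 ± 0.22, and the cyclins E, which drive the G1 to S transition, had -0.71 ± 0.35 (Ccne2) and -0.04 ± 0.31 (Ccne1). The direction of Ccne1 was not stable, since it was 0.03 under upper quartile scaling.

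Among the mitotic genes, 8 of 29 fell: Prc1, Nuf2, Hmmr, Ttk, Mki67, Top2a, Aurkb and Birc5. All 29 had negative log2 fold changes, with a median of -0.68, and 18 had an unadjusted p under 0.05.

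Prc1 (ENSMUSG00000038943.16, chr7:80294450-80316259), which bundles the microtubules of the central spindle, had the largest fall and the smallest adjusted p of the 49 genes. It had 27.1, 84.5 and 138 CPM in metastases and 116, 169 and 515 CPM in primary tumours. Of the 14 metastases, 11 lay below the lowest primary tumour, and metastasis 4-1 was the highest metastasis. The log2 fold change was -1.27 ± 0.27 (edgeR adjusted p = 0.00675, lower in 6 of 6 sets), a fold change of 0.416, and Prc1 passed the test in 16 of 18 other fits (adjusted p 0.000174 to 0.0734).

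Nuf2 (ENSMUSG00000026683.14, chr1:169497934-169531464), a subunit of the kinetochore complex that holds microtubules, had 8.54, 22.8 and 69.5 CPM in metastases and 29.6, 43.3 and 163 CPM in primary tumours. The highest metastasis was 4-1 and the highest primary tumour was 4, and 11 of 14 metastases lay below every primary tumour. Nuf2 fell by 0.97 ± 0.23 on the log2 scale (edgeR adjusted p = 0.0109, lower in 6 of 6 sets). Hmmr (ENSMUSG00000020330.16, chr11:40701395-40733422), a spindle protein and hyaluronan receptor, had 11.4, 38.2 and 93.0 CPM in metastases and 52.6, 70.2 and 317 CPM in primary tumours. Again 11 of 14 metastases lay below every primary tumour, with metastasis 3-2 highest. Its log2 fold change was -1.09 ± 0.28 (edgeR adjusted p = 0.0187, lower in 6 of 6 sets). Ttk (ENSMUSG00000038379.15, chr9:83834689-83872389), the Mps1 kinase of the spindle checkpoint, had 6.78, 20.7 and 44.7 CPM in metastases and 25.2, 31.6 and 112 CPM in primary tumours. Metastasis 1-2 was lowest and metastasis 4-1 highest, and the groups overlapped. For Ttk the log2 fold change was -0.89 ± 0.24 (edgeR adjusted p = 0.0244, lower in 6 of 6 sets).

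Mki67 (ENSMUSG00000031004.8, chr7:135689784-135716361), which encodes the proliferation antigen Ki-67 that coats mitotic chromosomes, had 47.6, 195 and 492 CPM in metastases and 286, 378 and 1054 CPM in primary tumours. Its mean was 222 ± 134 CPM in metastases (SD, n = 14) and 544 ± 314 CPM in primary tumours (SD, n = 6). Of the 14 metastases, 11 lay below every primary tumour, and metastasis 2-3 was the highest of the metastases. The log2 fold change was -1.17 ± 0.32 (edgeR adjusted p = 0.0247, lower in 5 of 6 sets). Top2a (ENSMUSG00000020914.17, chr11:98992943-99024189), the topoisomerase that untangles sister chromatids, had 129, 336 and 712 CPM in metastases and 397, 522 and 2354 CPM in primary tumours. Primary tumour 4 was far above the others, metastasis 4-1 was the highest metastasis, and the groups overlapped. Top2a had a log2 fold change of -0.97 ± 0.27 (edgeR adjusted p = 0.0259, lower in 6 of 6 sets). Aurkb and Birc5, both of the chromosomal passenger complex, fell with log2 fold changes of -0.72 ± 0.20 (edgeR adjusted p = 0.0288, lower in 6 of 6 sets) and -0.73 ± 0.22 (edgeR adjusted p = 0.0394, lower in 5 of 6 sets).

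Cdk1 (ENSMUSG00000019942.13, chr10:69335146-69352938), the kinase that drives entry into mitosis, had 30.7, 86.2 and 146 CPM in metastases and 92.9, 112 and 162 CPM in primary tumours. Of the 14 metastases, 10 lay below every primary tumour. Its log2 fold change of -0.45 ± 0.21 did not pass the test (edgeR adjusted p = 0.179, lower in 5 of 6 sets). Foxm1 (ENSMUSG00000001517.14, chr6:128362967-128376146), the transcription factor that activates mitotic genes, had 10.7, 31.5 and 182 CPM in metastases and 18.7, 51.0 and 68.8 CPM in primary tumours. Metastases 2-3, 3-1, 6-1, 6-2 and 2-4 lay above every primary tumour and 3 metastases lay below every one. The log2 fold change of Foxm1 was -0.29 ± 0.39 (edgeR adjusted p = 0.672, lower in 3 of 6 sets).

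The other 19 mitotic genes had log2 fold changes from -0.87 ± 0.34 for Ndc80, the partner of Nuf2 in the kinetochore complex, to -0.10 ± 0.30 for Cdc20, an activator of the anaphase-promoting complex. Cyclins B, the partners of Cdk1, had -0.78 ± 0.26 (Ccnb2) and -0.49 ± 0.29 (Ccnb1), and Cdc25c, the phosphatase that activates Cdk1, had -0.18 ± 0.31. The mitotic kinases Plk1 and Aurka had -0.73 ± 0.28 and -0.66 ± 0.23, and the checkpoint genes Bub1 and Bub1b had -0.70 ± 0.33 and -0.49 ± 0.27. The centromere and kinetochore genes Cenpf, Cenpe and Cenpa had -0.84 ± 0.38, -0.72 ± 0.38 and -0.41 ± 0.27. The kinesins Kif11, Kif23, Kif2c and Kif20a had -0.67 ± 0.32, -0.60 ± 0.27, -0.60 ± 0.25 and -0.18 ± 0.28. The spindle proteins Nusap1 and Tpx2 had -0.68 ± 0.28 and -0.63 ± 0.26, and Ube2c, the ubiquitin-conjugating enzyme of the anaphase-promoting complex, had -0.65 ± 0.23. The smallest edgeR adjusted p among these was 0.0597, for Ccnb2.

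Of the 3 genes that act in both phases, 0 passed the test with edgeR, 2 had an unadjusted p under 0.05, and Ccna2 passed with DESeq2. Ccna2, cyclin A, had a log2 fold change of -0.90 ± 0.31 (edgeR adjusted p = 0.0628), Mybl2, which encodes B-Myb, had -0.64 ± 0.29 and Cdk2 had -0.26 ± 0.17. Median levels ran from 5.29 CPM (Mybl2) to 336 CPM (Top2a) in metastases and from 8.96 CPM (Mybl2) to 522 CPM (Top2a) in primary tumours. Levels were also divided by the joined length of all annotated exons of a gene. That length can exceed the length of its main transcript, so the ranks depend on the annotation. In median CPM per kilobase of joined exons, Top2a was highest of the 49 genes in metastases, at 37.3. Ccna2 followed at 36.0 and Cdc20 at 35.0, and Mybl2 was lowest at 1.14.

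The GC content of transcripts moved with the levels in 3 libraries. Over the 49 genes, whose GC content ran from 36.3% for Ccne2 to 58.3% for E2f1, Pearson r between the deviation of a gene and its GC content was -0.93 in metastasis 4-1, -0.814 in metastasis 3-2 and -0.901 in primary tumour 4, against -0.296 to 0.523 in the other 17 libraries (a description over 49 genes of 1 library each). In primary tumour 4 the 16 genes of lowest GC content stood at a median of 2.47 above their 20-library medians on the log2 scale, and the 16 of highest GC content at -1.34. In metastasis 4-1 these medians were 0.86 and -1.88, and in metastasis 3-2 they were 0.94 and -0.50. The lowest 16 held 12 mitotic and 4 S phase genes, and the highest 16 held 8 mitotic and 7 S phase genes.

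The comparison of metastases with primary tumours was repeated with the GC trend taken out of each library and, in another fit, without these 3 libraries. With the trend taken out, all 12 genes that fell did so again and 18 of the 49 fell in all, against 9.33% of all genes, with a median log2 fold change of -0.60 over the 49. Without the 3 libraries, 13 fell, 10 of them among the 12, against 7.63% of all genes, with a median of -0.58. More genes fell in these fits than in the one with all 20 libraries both among the 49 and over all genes, and the median of the 49 was there -0.64.

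**Figure D3:**
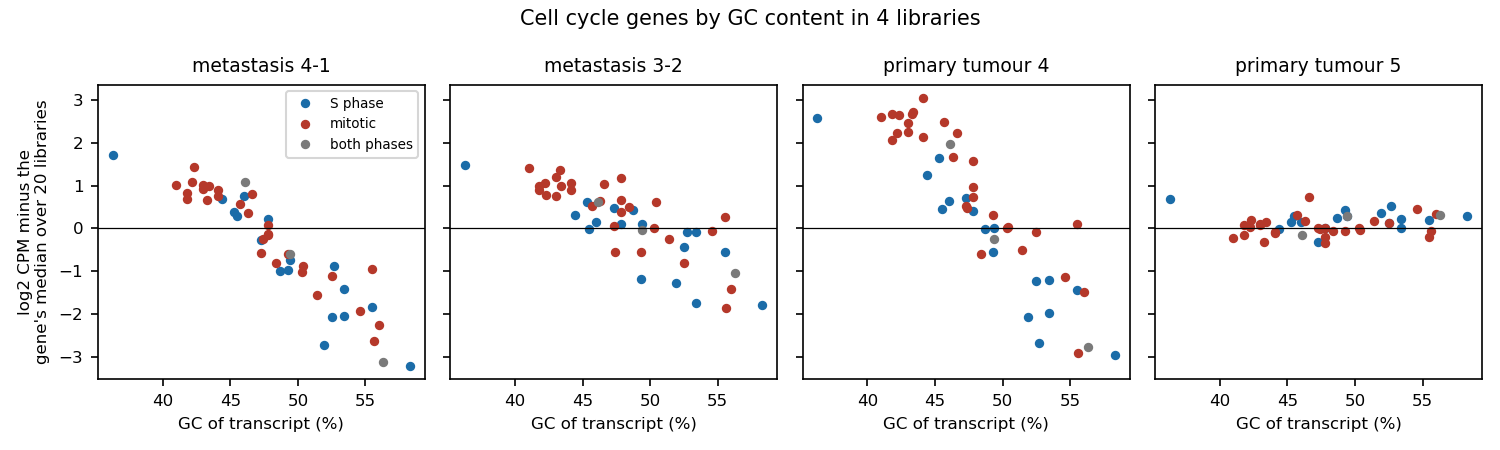
Deviation of each of the 49 genes (points) from its median over 20 libraries, in log2 CPM (vertical axis), against the GC content of its transcript in percent (horizontal axis), in metastases 4-1 and 3-2 and primary tumours 4 and 5. Points descend to the right in the first 3 panels (r = -0.93, -0.814 and -0.901) and lie near 0 at every GC content in primary tumour 5, shown as a library without the trend.

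The mean log2 CPM of the 17 S phase genes and of the 29 mitotic genes in a library, called here the S phase and the mitotic index, were set side by side. The S phase index ran from 4.44 through a median of 5.28 to 6.05 in metastases and from 5.08 through 5.68 to 5.95 in primary tumours. The mitotic index ran from 3.9 through 5.55 to 6.4 in metastases and from 5.8 through 6.07 to 7.1 in primary tumours. Metastasis 1-2 was lowest and metastasis 2-3 was the highest metastasis on both. Averaged over the 6 sets, metastases minus primary tumour was -0.42 ± 0.33 for the S phase index and -0.70 ± 0.51 for the mitotic index (SD, n = 6 sets), and each was negative in 6 of 6 sets. Without metastases 4-1 and 3-2 and primary tumour 4, which leaves set 4 out, they were -0.43 ± 0.38 and -0.67 ± 0.46 (SD, n = 5 sets), each negative in 5 of 5.

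The indices did not move in equal measure in every set. In sets 4 and 6 the mitotic index was lower in metastases by more than the S phase index, with differences of -1.19 and -1.17 against -0.39 and -0.04. Both libraries of set 4 carried the GC trend. In set 3 the S phase index differed by -0.73 and the mitotic index by -0.28, and without metastasis 3-2, a library with the GC trend, these were -0.77 and -0.59. The difference between the indices, mitotic minus S phase, averaged -0.28 ± 0.59 lower in metastases over sets (SD, n = 6), with both signs among the sets, so the spread exceeded the mean, and it was -0.23 ± 0.53 without the 3 libraries with the GC trend (SD, n = 5). Without sets 4 and 6 the median log2 fold change was -0.49 for the S phase genes and -0.46 for the mitotic genes, and 1 of the 49 genes (Cdc6) fell.

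Within single libraries, the mitotic index exceeded the S phase index most in primary tumours 4 and 6, by 1.79 and 1.43, and then in metastases 4-1 and 3-2, by 0.98 and 0.92. The other 12 metastases lay between -0.55 and 0.35, and the other 4 primary tumours between 0.13 and 0.25. Of these 4 libraries, 3 carried the GC trend, and primary tumour 6 did not, with r = -0.296 over the 49 genes. Primary tumours 4 and 6 were also the primary tumours with little muscle, with a muscle index of -0.88 and -2.64 against 8.39 to 9.28 in the other 4. The part of muscle in the mitotic levels was not tested. With the muscle index as a covariate, 18 of the 49 genes were lower in metastases, 10 of them among the 12, against 11.7% of all genes, where the fit without it had 12 and 6.44%. The medians of the groups then lay further apart, at -0.29 for the S phase genes and -0.85 for the mitotic genes, against -0.44 and -0.68 without the covariate. The muscle index itself was lower in the metastases of 4 of 6 sets, with differences from -7.93 in set 1 to 4.89 in set 6. This fit therefore cannot tell muscle content from the difference between metastases and primary tumours.

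**Figure D4:**
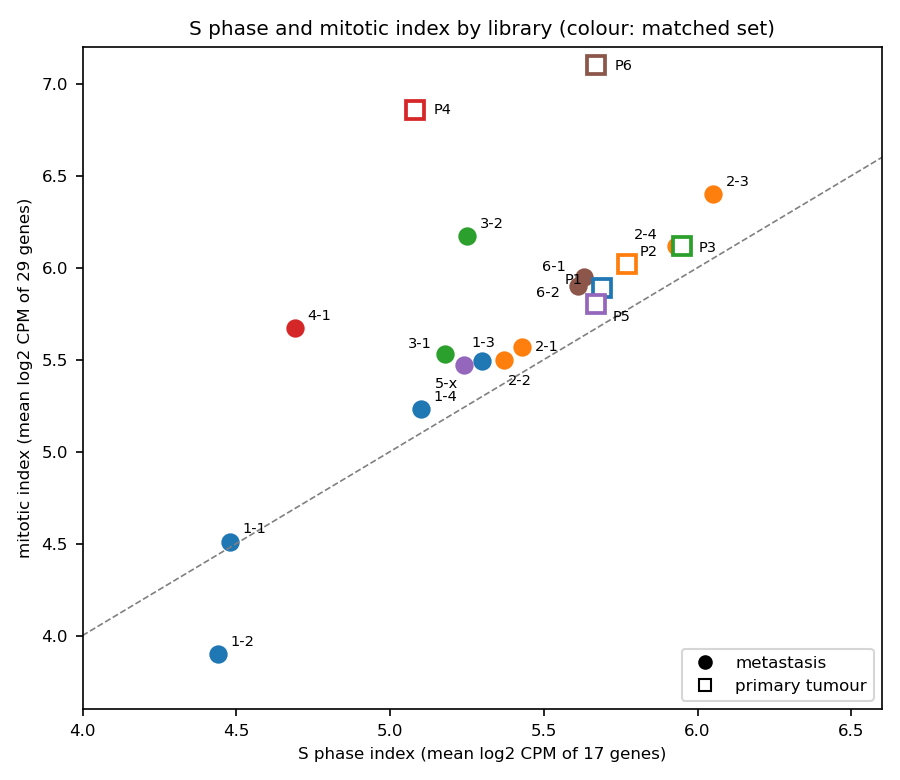
Mitotic index (vertical axis, mean log2 CPM of 29 genes) against S phase index (horizontal axis, mean log2 CPM of 17 genes) in each library, with metastases as filled circles, primary tumours as open squares (P1 to P6), a colour for each set and a dashed line of equality. Most libraries lie along the line, metastases 1-1 and 1-2 at its low end, while primary tumours 4 and 6 and metastases 4-1 and 3-2 lie well above it.

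Across libraries, metastasis 1-2 was the lowest of the 20 for 33 of the 49 genes and metastasis 4-1 for 11. Primary tumour 4 was highest for 19, primary tumour 6 for 13 and metastasis 2-3 for 10. Among the 17 libraries without the GC trend, metastasis 1-2 was lowest for 39 of the 49 genes and metastasis 1-1 for 8, and primary tumour 6 was highest for 28 and metastasis 2-3 for 11. Among the metastases the cell cycle genes thus ran from metastases 1-1 and 1-2 of set 1 at the low end to metastases 2-3 and 2-4 of set 2 at the high end. Whether the sets of metastases differed from each other was tested among the 12 metastases of sets 1, 2, 3 and 6. By edgeR, 0 of the 49 genes differed between sets, against 0.321% of all 19919 genes tested. The smallest adjusted p among them was 0.0915, for Mcm7. At an unadjusted p under 0.05 the count was 17, and with DESeq2 it was 9 of the 49, against 22.7% of all genes. Without set 2, edgeR called 2 of the 49 genes, against 12.2% of all genes, and without set 1 it called 0 of either, with 2 of the 49 at an unadjusted p under 0.05. Without metastasis 3-2, edgeR called 0 of the 49, against 0.24% of all genes, with 21 of the 49 at an unadjusted p under 0.05. With the GC trend taken out it called 0 of the 49, against 1.65% of all genes, with 20 at an unadjusted p under 0.05.

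Lung content was followed through Sftpc, the surfactant protein C gene of alveolar type 2 cells. Sftpc had 0.36, 76.3 and 4717 CPM in metastases and 0, 0.68 and 22.6 CPM in primary tumours, with metastasis 5-x highest and metastasis 2-4 lowest among the metastases. Over all 18452 genes tested, 1354 rose and 1189 fell in metastases. Of the 10 alveolar type 2 markers, 7 rose and 1 fell. Of the other marker lists, 7 of 10 skeletal muscle markers fell, 5 of 5 erythroid markers rose, 1 of 8 T cell markers fell and 1 of 8 mesenchymal markers fell. The part of these cells in the level of the cell cycle genes was not tested beyond the fits given here.

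Among metastases, the fitted slopes of the cell cycle genes on lung content were nearly all negative, and none passed the test. The slope on log2 CPM of Sftpc was fitted over 14 metastases with the set as a block. Metastases 4-1 and 5-x, each the only metastasis of its set, carried no information on the slope. The slope was negative for 48 of the 49 genes, against 52.1% of all 21600 genes tested. Its median was -0.07 log2 units per doubling of Sftpc over the 49 genes and -0.00329 over all genes. By edgeR 0 of the 49 slopes passed an adjusted p of 0.05, against 7.02% of all genes in either direction and 2.08% with a negative slope. An unadjusted p under 0.05 was found for 15 of the 49, all negative. With DESeq2, 6 of the 49 passed, against 13.4% of all genes in either direction and 5.46% with a negative slope. The smallest edgeR adjusted p was 0.0548, for Mcm7, with a slope of -0.08 ± 0.02. Foxm1 had -0.17 ± 0.05 (edgeR adjusted p = 0.0878), Mki67 had -0.10 ± 0.05, Top2a had -0.03 ± 0.04, and the slope nearest 0 was that of Birc5, 0.000525 ± 0.0381. Without metastasis 3-2, 4 genes passed, namely Mcm5, Mcm6, Mcm7 and Pcna, against 13.9% of all genes (5.78% with a negative slope). Without metastasis 2-3, 1 passed, Mcm7, against 7.48% (2.33% negative). With the GC trend taken out of the genes tested, but not of the Sftpc levels they were set against, 3 passed, against 10.8% (4.25% negative). The median slope was -0.13 without set 2.

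With Sftpc as a covariate, the comparison of metastases with primary tumours left 1 of the 49 genes lower, against 4.64% of all genes. This was Prc1 (adjusted p = 0.036, within 0.000174 to 0.0734 over all its other fits), and 37 of the 49 had a negative log2 fold change. The median was then -0.31 over the 49 genes, -0.14 over the S phase genes and -0.44 over the mitotic genes. Sftpc itself differed between the groups, so this fit cannot tell lung content from the difference between metastases and primary tumours.

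Mcm3 (ENSMUSG00000041859.10, chr1:20802968-20820312), a subunit of the MCM helicase, was the gene with the most uneven levels among metastases. This gene and its neighbours were singled out after their values were seen. It had 1015 CPM in metastasis 2-3 and 236 CPM in metastasis 3-1, against 163 CPM in the highest of the other 18 libraries. The level in metastasis 2-3 was 12.5-fold and that in metastasis 3-1 was 2.91-fold the median of those 18, 81.3 CPM, while the primary tumours of these sets had 112 CPM (set 2) and 126 CPM (set 3). The proteins of Mcm2 to Mcm7 form a ring in equal parts. Of the genes of that ring, Mcm4 and Mcm5 also had their highest level among metastases in metastasis 2-3, at 168 CPM and 200 CPM, against medians of 108 CPM and 63.5 CPM over the 14 metastases, while Mcm2, Mcm6 and Mcm7 were highest in metastasis 2-4.

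Most but not all of the genes beside Mcm3 on chromosome 1 were high in metastasis 2-3, and fewer or by less in metastasis 3-1. Of 10 tested genes within 1.5 Mb, Mcm3 included, 7 had their highest level of the 20 libraries in metastasis 2-3, against 9.56% of all genes tested. Mcm3 was chosen for its high level there, so its own place in the counts for metastasis 2-3 was fixed beforehand. Also 7 of the 10 were at least 4-fold the median of the other 18 libraries there, against 6.43% of all genes, and 9 were at least 2-fold it, against 14.9%. In metastasis 3-1, 3 of the 10 were at least 4-fold that median, against 6.08% of all genes, and 7 were at least 2-fold it, against 18.2%. Gm4956 lay below the median in both, at -3.27 in metastasis 2-3 and -0.74 in metastasis 3-1 on the log2 scale, and Gsta3 and Gm7658 lay at 0.54 and 0.51 in metastasis 3-1. Kcnq5 had 277 CPM in metastasis 2-3 and 78.5 CPM in metastasis 3-1, against a median of 17.9 CPM in the other 18. Paqr8 had 245 and 83.9 CPM in these metastases, against a median of 19.4 CPM, and Tram2 had 181 and 84.4 CPM, against 29.5 CPM. Pkhd1 had 40.4 and 9.49 CPM, against 1.66 CPM. No DNA was measured, so the copy number of this region is not given by these data. Without metastasis 2-3, the log2 fold change of Mcm3 was -0.37 ± 0.25 (edgeR adjusted p = 0.355, within 0.355 to 0.987 over its other fits). In that fit 14 of the 49 genes fell, against 6.7% of all genes.

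**Figure D5:**
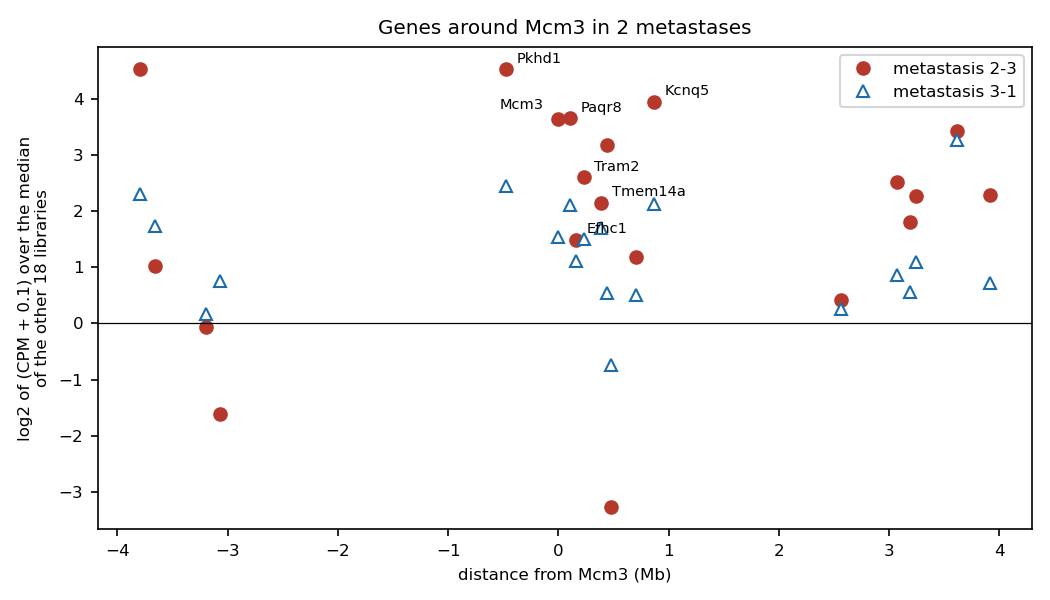
Level of each tested gene around Mcm3 in metastasis 2-3 (red circles) and metastasis 3-1 (blue triangles), as log2 of CPM with 0.1 added over the median of the other 18 libraries (vertical axis), against the distance of the gene from Mcm3 in Mb (horizontal axis). Pkhd1, Mcm3, Paqr8, Tram2, Tmem14a and Kcnq5 stand at 2.15 to 4.53 in metastasis 2-3 and at 1.51 to 2.45 in metastasis 3-1.

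Genes of the same pathways outside the 49 were taken from lists. Over all 18452 genes tested, 6.44% fell. Of 47 other replication genes 9 fell and 0 rose in metastases, with a median log2 fold change of -0.39. Those of smallest p were Wdhd1, a replisome scaffold, at -0.92 ± 0.14, Pole2, a subunit of DNA polymerase epsilon, at -1.08 ± 0.19, and Lig1, the ligase that joins Okazaki fragments, at -0.77 ± 0.15, with edgeR adjusted p of 0.00146, 0.00289 and 0.00483. All of these were lower in 6 of 6 sets, and Pole2 had 12 of 14 metastases below every primary tumour, at a median of 6.02 CPM in metastases and 12.7 CPM in primary tumours. Of 66 other mitosis genes 12 fell and 0 rose, with a median of -0.50. Kif15, a spindle kinesin, had -1.33 ± 0.25, Ncapg2, a condensin II subunit, had -0.85 ± 0.21 and Dlgap5, a spindle protein, had -0.84 ± 0.20, with edgeR adjusted p of 0.00353, 0.0131 and 0.0136, all lower in 6 of 6 sets. Genes outside the 49 thus had medians of the same sign and smaller size.

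Inhibitors of the cell cycle had log2 fold changes of both signs, and the regulators of G1 were more often negative than positive. Of 16 inhibitors 1 rose and 0 fell, where 1354 of all 18452 genes tested rose and 1189 fell. Of the 16, 8 had a negative and 8 a positive log2 fold change, and the median was 0.09. Tob1, an antiproliferative gene, rose by 0.92 ± 0.23 (edgeR adjusted p = 0.015, higher in 6 of 6 sets). Cdkn2d and Trp53, next by p, had -1.01 ± 0.33 and -0.71 ± 0.24 (edgeR adjusted p of 0.055 and 0.0628). Of 20 G1 cyclins, kinases and E2F or DREAM factors, 0 passed with edgeR and 8 had an unadjusted p under 0.05, 6 of them lower and 2 higher in metastases. The log2 fold change was negative for 14 of the 20, and its median was -0.18. The mean log2 CPM of these 20 genes was lower in the metastases of 5 of 6 sets, with a mean difference of -0.13 ± 0.22 (SD, n = 6 sets). E2f2 had 1.47 ± 0.48 (edgeR adjusted p = 0.0512), Cdc25a had -0.41 ± 0.14 and Lin54 had -0.57 ± 0.19. Ccnd1, the cyclin D of G1, had -0.15 ± 0.16 and Myc had -0.17 ± 0.20, with edgeR adjusted p of 0.575 and 0.636.

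Cdkn1a, the p21 inhibitor that p53 activates, had 12.4, 43.5 and 297 CPM in metastases and 17.3, 22.5 and 107 CPM in primary tumours, with a log2 fold change of 0.81 ± 0.63 (edgeR adjusted p = 0.428, higher in 4 of 6 sets). Its highest value was that of metastasis 2-3. Cdkn2a, which encodes the inhibitor p16 and the p53 regulator p19Arf, had 3.20, 233 and 456 CPM in metastases and 0.16, 186 and 199 CPM in primary tumours, with a log2 fold change of 0.79 ± 1.02 (edgeR adjusted p = 0.656, higher in 4 of 6 sets). It was near 0 in 3 libraries: metastasis 2-3 with 3.20 CPM, primary tumour 4 with 0.16 CPM and primary tumour 6 with 0.84 CPM. The next lowest library, metastasis 3-2, had 21.4 CPM. These 3 libraries had the highest mitotic index of the 20, at 6.4, 6.86 and 7.1, a description over libraries chosen after their values were seen. Their S phase index did not follow: it was 6.05 in metastasis 2-3, the highest of the 20, but 5.08 in primary tumour 4, the lowest primary tumour, and 5.67 in primary tumour 6, against a median of 5.68 over primary tumours. Primary tumour 4 is also a library with the GC trend.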

How the data were processed

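RNA of 14 lung metastases and 6 primary tumours was made into stranded libraries after removal of ribosomal RNA, per the labels' protocols. Trimmomatic 0.36, STAR (with the doubtful version string 5.5.4b), HTSeq and the mm10 build are named in the submitters' processing notes. The authors deposited raw counts of reads per gene, as whole numbers. Neither the annotation release nor whether counting used strand is given in the sources used here, so overlapping and antisense genes may share reads.

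CPM were computed from the counts with totals scaled by TMM factors, and log2 CPM with a prior count of 2. Metastases and primary tumours were compared with edgeR 4.0.16 in R 4.3.3 (robust quasi-likelihood test, filterByExpr with a minimum count of 10, set as a block, 13 residual degrees of freedom). The test was fitted on all 18452 genes, with Benjamini-Hochberg adjustment over all of them and a threshold of 0.05. A standard error is the size of the log2 fold change divided by the square root of F. The same test was used for differences between sets and for the slope on Sftpc. DESeq2 1.42.0 was an alternative, as were other scalings, filters, covariates and sets left out. Metastases of 1 set may share an animal, which the block does not take into account.

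The design text and the titles give the pairing. As a check, deviations from the group means were correlated between each primary tumour and its metastases (mean over sets 0.0577, 1000 genes of highest variance). The correlation ran from -0.221 in set 5 to 0.268 in set 1, and was -0.146 in set 3, so the check lends the pairing little support. The set block and the counts by set rest on the pairing as labelled. Transcript GC content came from GENCODE transcripts of GRCm38, and the GC check took genes whose mean log2 CPM was above 2, with a pseudocount of 0.1. Gene coordinates are of GRCm38, and the neighbours of Mcm3 were placed by RefSeq. The fits were tested on simulated data. The 49 genes and the other lists (other replication genes, other mitosis genes, inhibitors, G1 factors, and markers of alveolar type 2 cells, skeletal muscle, T cells, erythroid cells and mesenchymal cells) were chosen with earlier results of these data known. Values by library are given for the 4 S phase and 4 mitotic genes of smallest p, for Mki67, Top2a, Pcna, Cdk1 and Foxm1, and for the gene of largest positive log2 fold change. Of each other list the 3 genes of smallest p are named, with Cdkn1a, Cdkn2a, Ccnd1 and Myc.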

Additional observations from a re-analysis of the deposited data

Results flagged for a closer look

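Single libraries stood apart from the rest of their group by Dixon's test at the 95% level, which by chance marks about 1 in 20 groups. It was applied to log2 CPM of the 49 genes among the 6 primary tumours and among the 4 metastases each of sets 1 and 2, which made 147 groups, and it marked 17 of them, besides the S phase index.

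Primary tumour 4 was far below the other primary tumours for Cdc45 (20.8 CPM), Mcm2 (30.8 CPM), Mcm3 (38.5 CPM), Mcm5 (18.7 CPM), Gins2 (5.46 CPM), E2f1 (2.25 CPM), Cdc20 (7.81 CPM), Plk1 (6.37 CPM), Foxm1 (18.7 CPM) and Mybl2 (0.963 CPM), and for the S phase index (5.08). It was far above them for Pcna (119 CPM). Primary tumour 4 is among the 3 libraries in which levels fell with transcript GC content. Primary tumour 6 was far below the others for Mcm4 (96.0 CPM) and far above them for Bub1b (186 CPM).

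Metastasis 2-3 was far above the other metastases of set 2 for Mcm4 (168 CPM), Rrm1 (268 CPM), Ccnb2 (69.8 CPM) and Prc1 (127 CPM).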

How the results depend on the processing

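Without the replicate block 9 of the 49 genes fell, 7 of them among the 12, and 2484 genes were called in all, against 12 and 2543 with it, and the median log2 fold change was -0.54. The genes called in all numbered 4721 with DESeq2, 5010 with a muscle index in the fit, 360 with the metastases of a set summed, 415 with metastasis 1 of each set alone, and 999 to 3052 with each set left out in turn. Of the 49 genes, those that fell numbered 0 with metastases summed, 4 with metastasis 1 alone, 1 with Sftpc as a covariate, 1 without sets 4 and 6, and 2 to 14 with each set left out. Of all genes, 0.357% fell with metastases summed, 0.627% with metastasis 1 alone and 4.64% with Sftpc as a covariate. The share was 5.66% without sets 4 and 6, 2.22% to 7.65% with each set left out, and 6.84% without the replicate block. The median of the S phase genes was -0.44, and -0.14 with Sftpc as a covariate. The medians of the 49 genes and of the mitotic genes were -0.638 and -0.676, and -0.314 and -0.438 with Sftpc as a covariate. In all these fits they moved by no more than the spread between sets. This spread was an SD over sets of 0.349 for the 49 genes and 0.529 for the mitotic genes. It is wide beside the medians, so this check is a loose one. Counting Ccna2, Cdk2 and Mybl2 with the S phase genes, a prior count of 0.5, or leaving out primary tumour 4 and metastases 4-1 and 3-2 moved no median or index by more than that spread. Depth limited none of the 49 genes, all of which had at least 18 counts in every library.

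Signs of genes that did not pass the test turned in some fits. With Sftpc as a covariate the log2 fold change was 0.85 for Mcm3, 0.53 for Foxm1, 0.33 for Ccne1, 0.26 for Cdc25c, 0.25 for Mcm2, 0.24 for Kif20a, 0.21 for Mcm7, 0.17 for Cdc20, 0.14 for Pcna, 0.11 for Cdk2, 0.0331 for Mcm5 and 0.0324 for Myc. With the muscle index it was 0.30 for Mcm3, 0.54 for Ccne1, 0.15 for Foxm1 and 0.0906 for Cdc20. Without the replicate block it was 0.61 for Mcm3, 0.12 for Cdc20, 0.11 for Foxm1 and 0.00227 for Mcm7. With each set left out in turn it ran from -0.434 to 0.0898 for Mcm3 (positive without set 1), from -0.24 to 0.189 for Cdc20 (positive without set 3) and from -0.265 to 0.221 for Ccne1 (positive without sets 1, 3 and 5). It was 0.0615 for Mcm3 and 0.0438 for Cdc20 without primary tumour 4 and metastases 4-1 and 3-2. For Ccne1 it was 0.0322 with upper quartile scaling and 0.13 with metastases summed. Without sets 4 and 6 it was 0.0869 for Cdc25c, 0.11 for Myc and -0.21 for Cdkn2a. The cause was not tested.

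Between sets of metastases, 64 genes were called in all, against 4786 with DESeq2, 726 with upper quartile scaling, 164 without the filter, 2590 with Sftpc as a covariate, 230 without metastasis 2-3, 51 without metastasis 3-2, 328 with the GC trend removed and 0 to 2346 with a set left out. Of the 49 genes, 0 were called, and 9 with DESeq2, 3 with Sftpc as a covariate and 0 to 2 with a set left out. For the slope on Sftpc, 1517 genes were called, against 2928 with DESeq2, 682 without the replicate block, 2990 without metastasis 3-2, 2336 with the GC trend removed and 691 to 3011 with a set left out. Of the 49 genes, 0 slopes were called, and 6 with DESeq2, 1 with the alveolar type 2 index in place of Sftpc, 1 without metastasis 2-3, 4 without metastasis 3-2, 3 with the GC trend removed and 0 to 6 with a set left out. The median slope was -0.11 over the 49 genes and -0.13 over the mitotic genes with that index. Without metastases 2-3 and 2-4 it was -0.125 over the 49 genes, -0.122 over S phase genes and -0.127 over mitotic genes. With a set left out it ran from -0.13 to -0.0617, from -0.127 to -0.0455 and from -0.132 to -0.0695 for these. The fits with the GC trend removed and those without metastasis 2-3, without metastasis 3-2, or without primary tumour 4 and metastases 4-1 and 3-2 were chosen after seeing the data.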
